A study of Sus scrofa with 12 samples.

Results

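IPEC-J2 is an established line of porcine small intestinal epithelial cells, and deoxyshikonin is a plant naphthoquinone. Among the genes of low abundance, 233 were listed at exactly 0 TPM in every untreated IPEC-J2 library and above 0 in every library of at least 1 of the 2 deoxyshikonin groups. They are described here as genes seen only in treated cells. TPM is the relative transcript abundance of a gene corrected for its length and scaled so that every library has the same total. The members were selected on these TPM values, from the 20542 Ensembl pig genes with a mean TPM under 1 over all 12 libraries, out of 32518 identifiers in the table. A gene qualified at 6 h if all 3 libraries treated for 6 h were above 0, and at 24 h if all 3 libraries treated for 24 h were. The rule was met at both times by 44 genes, at 6 h only by 84 and at 24 h only by 105.

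The study held 4 groups of 3 libraries. They were untreated IPEC-J2 cells at 6 h, untreated cells at 24 h, and cells given deoxyshikonin at 5 µmol/L for 6 h or for 24 h. All libraries came from this single cell line, and the labels do not say whether replicates were separate cultures, so any p-value here measures only the spread between these libraries. The labels name no vehicle for the controls.

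A differentiated epithelial cell transcribes part of its genes and keeps others, such as those of liver enzymes, hair proteins or neuronal factors, silent through closed chromatin and absent transcription factors. Naphthoquinones such as deoxyshikonin are redox-active compounds that can react with proteins, and cells answer such compounds with broad changes in transcription. At the bottom of the abundance scale a gene listed at 0 and a gene listed at a few hundredths of a TPM can differ by very few sequenced fragments. TPM keeps no depth, so the number of reads behind a value is unknown, and neither intervals nor floors are attached to single values. The table has 2 decimals, so a gene listed at 0 may hold any value under 0.005 TPM. A change in the share of transcribing cells and a change per cell cannot be told apart in such bulk libraries.

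The zeros in controls and the values above 0 in treated libraries chose the members, so control against treated is given as a description and was not tested. Of 10265 low genes at 0 in all 6 controls, the 233 members were 2.27%. The rule was met at 6 h by 128 genes (1.25%) and at 24 h by 149 genes (1.45%). The same rule with the sides exchanged, 0 in all 6 treated libraries and above 0 in all 3 controls of a time, was met by 20 of 8810 genes (0.227%). These 20 genes included NUP62CL, with 0.47, 0.23 and 0.21 TPM in the 6 h controls, NRM, with 0.19, 0.73 and 2.24 TPM there, and SYT8, with 0.28, 0.16 and 0.15 TPM in the 24 h controls. All 3 names were chosen after their values were seen.

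The excess on the treated side was present at every number of libraries. A single treated library was above 0 for 1276 genes that were at 0 in all controls, and a single control library for 615 genes that were at 0 in all treated libraries. All 6 libraries of the other side were above 0 for 44 genes and for 3 genes. Low genes in general were above 0 more often in treated libraries, with 7282 to 7885 of them at 6 h and 7973 to 8121 at 24 h, against 6643 to 6879 and 6765 to 7071 in the controls. The part of this general shift in the membership was not tested.

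**Figure D1:**
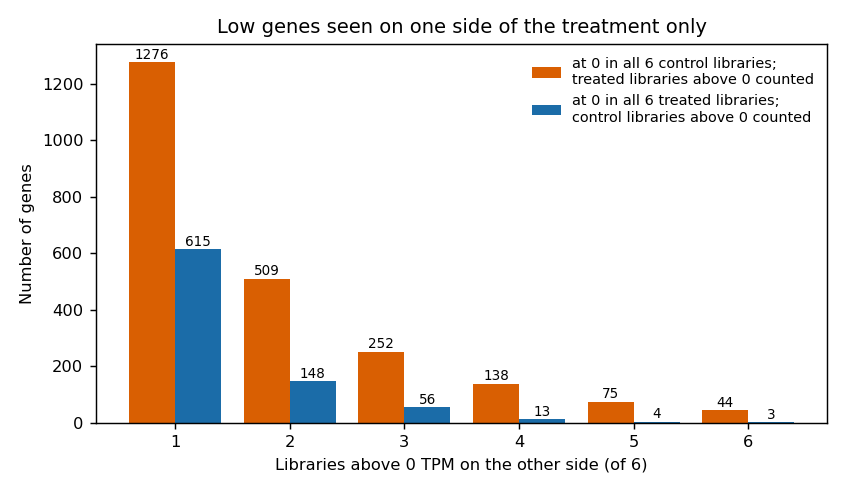
Number of low genes (vertical axis) by how many of 6 libraries were above 0 TPM (horizontal axis). Orange bars are genes at 0 in all controls, with treated libraries counted, and blue bars are genes at 0 in all treated libraries, with controls counted. The orange bars are taller at each number of libraries, from 1276 against 615 genes at 1 library to 44 against 3 at 6 libraries.

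Levels were low. The mean TPM over the libraries of the qualifying time or times had a median of 0.0667 among the 233 members. It was at least 0.1 TPM for 91 members, at least 0.5 TPM for 18 and at least 1 TPM for 8. In 51 members no treated library exceeded 0.05 TPM. The medians of the 3 classes were close, at 0.0733 TPM for the genes of both times, 0.06 TPM for those of 6 h only and 0.0667 TPM for those of 24 h only.

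Replicates of a member spread widely. Over the 277 pairs of a member and a qualifying time, the highest of the 3 libraries was a median of 2.07 times the lowest, it was at most 2 times the lowest in 135 pairs, and over 5 times in 23. Several members rested on a few hundredths of a TPM in each library. LEFTY2, a secreted signal of the TGF-beta family, had 0.04 TPM in each of the 3 libraries at 6 h. KCNJ8, a potassium channel subunit, had 0.01 TPM in each of the 3 libraries at 24 h, the smallest value the table can show. Both were chosen as examples after their values were seen.

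Summed over the members, treated libraries held 22.03, 21.65 and 24.82 TPM at 6 h and 40.52, 31.15 and 31.82 TPM at 24 h. The number of members above 0 was 161, 164 and 181 at 6 h and 183, 180 and 179 at 24 h. The genes of both times contributed 8.73 to 9.91 TPM at 6 h and 10.96 to 11.28 TPM at 24 h. The genes of 24 h only made up most of the sum at 24 h, with 27.03, 17.57 and 18.97 TPM, and replicate 1 stood above the others. The 10 highest members held 34.0% to 42.1% of the sum in a 6 h library and 42.8% to 55.9% in a 24 h library.

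**Figure D2:**
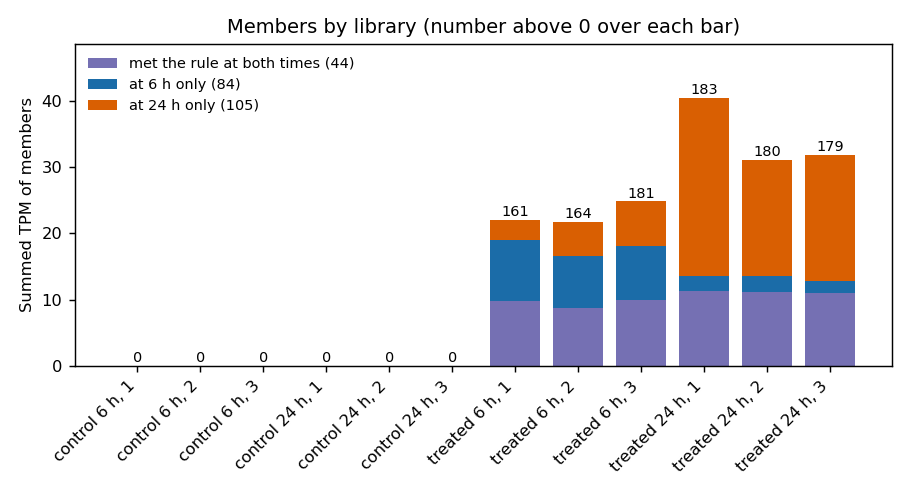
Summed TPM of the 233 members in each of the 12 libraries (vertical axis), stacked by the time or times at which a gene met the rule, with the number of members above 0 printed over each bar. Controls are at 0 by the rule, 6 h treated libraries reach 21.65 to 24.82 TPM and 24 h treated libraries 31.15 to 40.52 TPM.

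Symbols were found for 126 of the 233 members, 27 of the genes of both times, 44 of those of 6 h only and 55 of those of 24 h only. The genes described next are the most abundant members with a symbol in each class, and all of them had 0 TPM in the 6 controls.

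The most abundant member with a symbol was GPR50, an orphan receptor related to the melatonin receptors that does not bind melatonin. Its TPM was 0.4, 0.55 and 0.49 in the libraries treated for 6 h and 4.32, 2.36 and 2.51 in those treated for 24 h. All 3 values at 24 h were above those at 6 h. Its relatives stayed at or near 0, since the melatonin receptor gene MTNR1B was at 0 in all 12 libraries and MTNR1A was above 0 in a single 24 h treated library, at 0.08 TPM. Of the members without a symbol, ENSSSCG00000036045 and ENSSSCG00000032608, both of 24 h only, had higher means at their qualifying time, 2.50 TPM (libraries at 4.72, 2.21 and 0.56) and 1.94 TPM (2.8, 1.37 and 1.64), against 1.77 TPM for GPR50 over both times. They were named after their values were seen.

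TAC1 encodes the precursor of substance P and neurokinin A, peptides of enteric nerves. It had 1.57, 1.62 and 1.49 TPM at 6 h, with replicates close together, and 0.2, 1.02 and 0.6 TPM at 24 h. The 6 h libraries all lay above the 24 h libraries. TACR1, the gene of the substance P receptor, was present in all 4 groups but uneven among treated replicates. It had 6.28 to 8.16 TPM in 6 h controls and 3.06 to 10.16 TPM in 24 h controls, against 13.62, 0.02 and 14.05 TPM in 6 h and 0.01, 6.39 and 6.87 TPM in 24 h treated libraries. The gene next to TAC1 in the RefSeq order, ASNS, had means of 172 and 291 TPM in 6 h control and treated cells and of 411 and 298 TPM at 24 h.

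Further peptides and secreted signals met the rule at both times at lower levels. IL24, an IL-10 family cytokine that signals to epithelial cells, had 0.25, 1.22 and 0.23 TPM at 6 h and 0.48, 0.23 and 0.72 TPM at 24 h, with replicate 2 high at 6 h. The neighbouring cytokine gene IL20 was at 0 in all controls and all 6 h treated libraries and had 0, 0.1 and 0.11 TPM at 24 h. IL19 was at 0 in all 12 libraries. IL20RA and IL22RA1, genes of IL-24 receptor chains, were above 0 in every library. IL20RA had means of 0.95 and 0.44 TPM in 6 h control and treated cells and of 1.74 and 1.32 TPM at 24 h. IL22RA1 had 1.88 and 0.327 TPM at 6 h and 1.41 and 2.31 TPM at 24 h. No value is given here for IL20RB, a further chain. TNFRSF11B, which encodes osteoprotegerin, a secreted decoy receptor for the RANK ligand, had 0.12, 0.08 and 0.04 TPM at 6 h and 0.19, 0.11 and 0.16 TPM at 24 h. TG, the gene of thyroglobulin, had 0.03 to 0.14 TPM at 6 h and 0.04 to 0.06 TPM at 24 h. These groups overlapped between the times for all 3 members.

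Enzymes formed another part of the leading members. CPXM1, which encodes a secreted protein of the carboxypeptidase family without known peptidase activity, was similar at both times, with 0.97, 0.88 and 1.02 TPM at 6 h and 0.61, 1.04 and 1.09 TPM at 24 h. CYP7A1, the rate-limiting enzyme of the classical bile acid synthesis pathway and normally a liver gene, had 0.23, 0.29 and 0.42 TPM at 6 h and 0.53, 0.47 and 0.58 TPM at 24 h. Its 24 h libraries all lay above its 6 h libraries. NR0B2, which encodes a nuclear receptor that represses CYP7A1 in liver, was also at 0 in all controls and was above 0 in 2 of 3 treated libraries at 6 h (0.17 and 0.24 TPM) and in 1 of 3 at 24 h (0.08 TPM), so it missed the rule. CYP7B1, of the alternative bile acid pathway, was at 0 in all 12 libraries. CYP27A1, also of that pathway, was above 0 in all 12. It had means of 0.12 and 0.123 TPM in 6 h control and treated cells and of 0.11 and 0.293 TPM at 24 h. HDC, the enzyme that makes histamine from histidine, had 0.16, 0.15 and 0.03 TPM at 6 h and 0.03, 0.03 and 0.06 TPM at 24 h.

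Genes of RNA-binding proteins and of other functions completed the most abundant genes of both times. CPEB1, a regulator of cytoplasmic polyadenylation, had 0.18, 0.37 and 0.2 TPM at 6 h and 0.1, 0.25 and 0.19 TPM at 24 h. Its relatives CPEB2 and CPEB4 were expressed in every group, with means of 9.53 and 14.8 TPM in 6 h controls. ELAVL3, a neuronal RNA-binding protein, had 0.05 to 0.16 TPM at 6 h and 0.07 to 0.15 TPM at 24 h. Its relatives were seen in untreated cells. The widely expressed ELAVL1 had a mean of 51.8 TPM in 6 h controls. ELAVL2 had means of 2.75 and 1.55 TPM in 6 h and 24 h controls, and ELAVL4 had 0.107 and 0.103 TPM there. SLC26A5, known as prestin, the motor protein of cochlear outer hair cells, had 0.05 to 0.1 TPM at 6 h and 0.01 to 0.09 TPM at 24 h. GARIN5B ranged from 0.03 to 0.19 TPM over the 6 treated libraries. For these 4 members the times overlapped.

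Of the members with a symbol that qualified at 6 h only, MC1R and FCN2 were highest. MC1R, the melanocortin receptor of pigment cells, had 0.31, 0.5 and 0.39 TPM at 6 h and 0, 0 and 0.1 TPM at 24 h. FCN2, a ficolin, a lectin of the complement system, had 0.36, 0.42 and 0.42 TPM at 6 h and 0, 0 and 0.07 TPM at 24 h. Both were low again in every 24 h library. ICAM4, an adhesion molecule of red blood cells, had 0.26, 0.38 and 0.12 TPM at 6 h and a single value above 0 at 24 h, 0.12 TPM. ICAM1, its neighbour in the RefSeq order, had a mean of 21.9 TPM in 6 h controls and 30.7 TPM in 6 h treated cells.

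RASL12, a small GTPase of the Ras family, had 0.23, 0.29 and 0.42 TPM at 6 h. TEX11, a meiosis gene, had 0.29, 0.13 and 0.18 TPM, and LRRC10, a heart protein, had 0.25, 0.25 and 0.12 TPM. C1QTNF12, a secreted adipokine, had 0.31, 0.08 and 0.15 TPM at 6 h and was at 0 in all 24 h libraries. ADIG, a gene of fat cells, had 0.15, 0.29 and 0.14 TPM at 6 h and 0.28, 0 and 0 TPM at 24 h, so its highest 24 h library lay within its 6 h range.

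The class of 24 h only held the genes with the widest spread. GNG8, a G protein gamma subunit, had 3.43, 0.79 and 0.79 TPM at 24 h and 0, 1.7 and 0.73 TPM at 6 h, so it was also above 0 in 2 of 3 libraries at the earlier time. Its neighbour PTGIR, the prostacyclin receptor gene, had means of 0.00667 and 0.41 TPM in control and treated cells at 6 h and of 0 and 0.337 TPM at 24 h. All treated libraries of PTGIR lay above all controls at both times, and its single control value above 0 kept it from being a member. PDZRN3, a ubiquitin ligase with PDZ domains, had 0.52, 0.41 and 0.29 TPM at 24 h and 0.07, 0.07 and 0 TPM at 6 h.

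Keratin-associated proteins are structural proteins of hair. KRTAP11-1 had 2.03, 1.31 and 1 TPM at 24 h and was at 0 in all 3 libraries at 6 h, which separated the times completely. KRTAP27-1 had 1.17, 0.19 and 0.39 TPM at 24 h and 0, 0.8 and 0.19 TPM at 6 h, with overlap. They were the only 2 members with symbols that begin with KRT, of 33 low genes with such symbols. Over all 5291 low Ensembl genes with a symbol, 2.38% were members. MCCD1 had 0.41, 0.61 and 0.21 TPM at 24 h and 0, 0.21 and 0.8 TPM at 6 h, so its highest library was one treated for 6 h.

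The remaining leading members of 24 h only were DIO3, LMCD1 and LRRC15. DIO3, the deiodinase that inactivates thyroid hormone, had 0.1, 0.1 and 0.43 TPM at 24 h and 0, 0 and 0.21 TPM at 6 h. LMCD1, a LIM domain cofactor of transcription, had 0.27, 0.12 and 0.22 TPM at 24 h and 0.11, 0.01 and 0 TPM at 6 h. LRRC15, a membrane protein known from activated fibroblasts, had 0.05, 0.23 and 0.24 TPM at 24 h and 0, 0 and 0.05 TPM at 6 h.

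**Figure D3:**
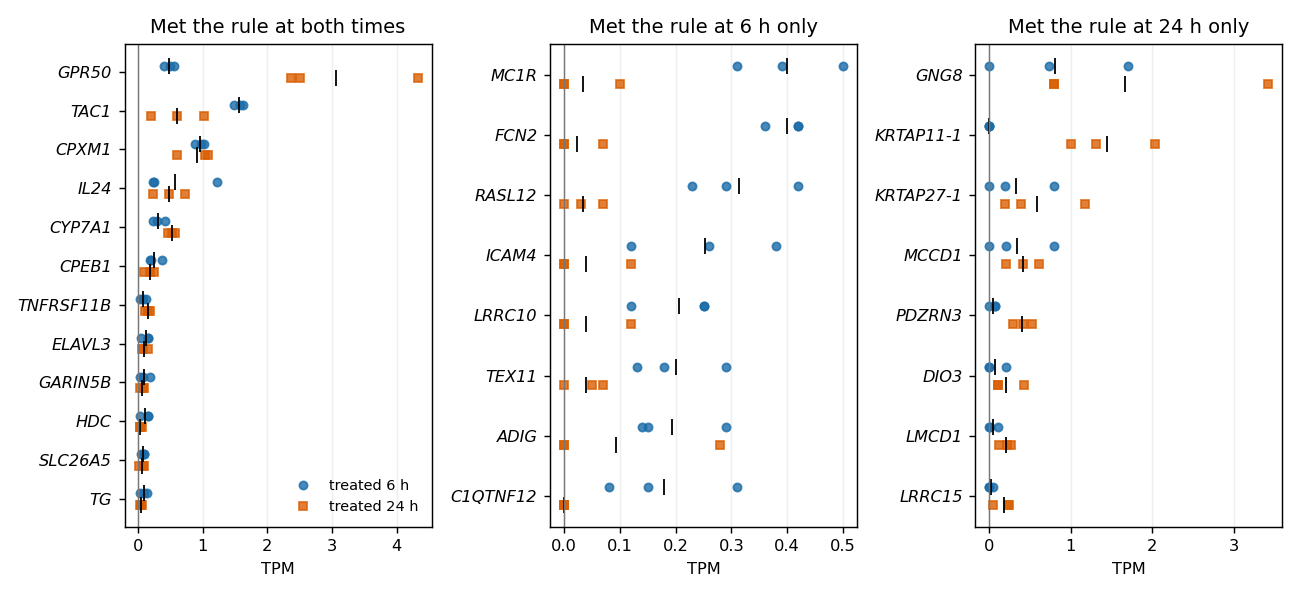
TPM (horizontal axes, a different range in each panel) of the 28 named members in the 3 libraries treated for 6 h (blue circles) and the 3 treated for 24 h (orange squares), with black ticks at the group means. All 6 controls are at 0 TPM and are not drawn. GPR50 reaches 2.36 to 4.32 TPM at 24 h against 0.4 to 0.55 TPM at 6 h, and TAC1 has 1.49 to 1.62 TPM at 6 h against 0.2 to 1.02 TPM at 24 h.

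Less abundant members covered many kinds of genes, and the following were chosen for their function after their values were seen, so their number is no measure of any kind. Genes of secreted peptides and growth factors were CCK, the gut hormone cholecystokinin, with 0.06, 0.04 and 0.02 TPM at 6 h and 0.05, 0.09 and 0.04 TPM at 24 h, and the BMP antagonist GREM1, with 0.04, 0.04 and 0.06 TPM and 0.11, 0.08 and 0.02 TPM. FGF1 had 0.03 to 0.08 TPM at 6 h and 0.02 to 0.1 TPM at 24 h. DKK2, a Wnt modulator, had 0.06, 0.17 and 0.09 TPM at 24 h, and EDN2, an endothelin, had 0.15, 0.05 and 0.05 TPM at 6 h. Transcription factor genes included SOX11 with 0.2, 0.05 and 0.21 TPM at 24 h, NEUROD1, a factor of neurons and endocrine cells, with 0.09, 0.12 and 0.18 TPM at 24 h, and LHX4 with 0.08, 0.08 and 0.04 TPM at 6 h. HAS2, an enzyme of hyaluronan synthesis, had 0.24, 0.04 and 0.1 TPM at 24 h and was at 0 at 6 h, as was TREM2, a myeloid receptor, with 0.17, 0.06 and 0.24 TPM at 24 h. MLNR, the receptor of the gut hormone motilin, had 0.08, 0.07 and 0.07 TPM at 6 h and was at 0 at 24 h.

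Many genes that qualified at a single time were also present at the other. Of the 84 genes of 6 h only, 20 were at 0 in all 3 libraries at 24 h, 33 were above 0 in 1 of them and 31 in 2. Of the 105 genes of 24 h only, 27 were at 0 in all 3 libraries at 6 h, 34 were above 0 in 1 and 44 in 2. The classes are therefore set in part by single libraries. Both treatment times share the rule's 6 control libraries, so the 44 genes that met the rule at both times are not an independent overlap.

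Levels were then compared between the treated groups, 24 h against 6 h, a contrast in which the rule asked only for values above 0 and for a mean TPM under 1 over all libraries. The test was limma on log2(TPM + 0.1) over the 6 treated libraries, with Benjamini-Hochberg adjustment over all 20022 genes fitted. For genes that met the rule at a single time the rule itself set this difference, so only the 44 genes of both times are given with a test. An adjusted p-value under 0.05 was found for 7 of the 44, 3 higher and 4 lower at 24 h. Over all fitted genes 30.8% were higher and 17.2% lower, and over the fitted Ensembl genes with a mean TPM under 1 these shares were 11.9% and 4.41%. The shares of the 44 genes, 6.82% higher and 9.09% lower, rest on 3 and 4 genes, and the 3 include a pair with identical values in every library. The median change was -0.056 on the log2 scale for the 44 genes, against 0.13 over all fitted genes.

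GPR50 rose between 6 h and 24 h by 2.40 on the log2(TPM + 0.1) scale (SE 0.27, limma adjusted p = 0.000342), with every 24 h library above every 6 h library. TAC1 fell by 1.43 (SE 0.46, limma adjusted p = 0.0388). Over the alternative fits its limma adjusted p ranged from 0.00609 to 0.0919. The call was lost at a pseudocount of 0.01, with no filter on low values, without the variance trend, without any 1 of the 6 h replicates and without replicate 3 at 24 h, and the fall was 0.91 without replicate 1 at 24 h. The other 5 calls were genes without a symbol. ENSSSCG00000041229 and ENSSSCG00000047093 had the same value in each of the 12 libraries and may be copies that the quantification could not separate. They had 0.11, 0.06 and 0.13 TPM at 6 h and 0.73, 0.38 and 0.89 TPM at 24 h, a rise of 1.89 (SE 0.32, limma adjusted p = 0.00256). The 3 others were lower at 24 h, by -1.93, -1.30 and -0.58 on the log2 scale.

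For the other 37 genes of both times a difference was not detectable with these libraries. CYP7A1 was higher at 24 h in all libraries, by 0.62 on the log2 scale (SE 0.24), but its limma adjusted p was 0.0708. Over the alternative fits that value ranged from 0.0113 to 0.314, and it passed the threshold in 4 of them, among them the fit without replicate 3 of the 6 h treated group (0.0309). For CPXM1 the change was -0.095 (SE 0.25) with an adjusted p of 0.789 in limma, and for IL24 it was 0.014 (SE 0.61) with an adjusted p of 0.99. Among the 44 genes, every 24 h library lay above every 6 h library in 4, the reverse held in 5, and the times overlapped in 35. Over the 4475 low Ensembl genes above 0 in all 6 treated libraries, the first held for 20.4% and the reverse for 9.3%.

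**Figure D4:**
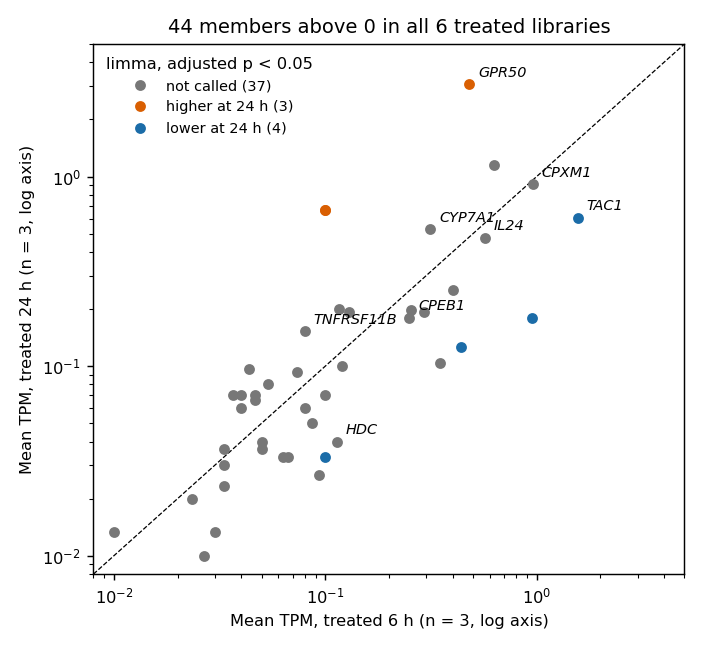
Mean TPM of the 44 members that met the rule at both times, treated for 6 h (horizontal log axis) against treated for 24 h (vertical log axis), 3 libraries each, with a dashed line of equality. Orange points were higher and blue points lower at 24 h by limma, and grey points were not called. GPR50 lies far above the line, TAC1 below it, and the orange pair without a label is 2 genes with identical values drawn as a single point.

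The gene lists considered for this treatment contained no member. The 8 lists, for cytokines and chemokines, NRF2 targets, heat shock proteins, unfolded protein stress, immediate early genes, p53 targets, xenobiotic metabolism and metallothioneins, name 82 genes, of which 66 were found in the table. Only 3 of the 66 were at 0 in all controls and so could have met the rule. CXCL10, an interferon-induced chemokine, had 0.06, 0.06 and 0 TPM at 6 h and 0, 0.06 and 0.42 TPM at 24 h, which missed the rule by 1 library at each time. The metallothionein gene MT3 was above 0 in a single 6 h treated library, at 0.38 TPM, and CYP1A2 was at 0 in all 12 libraries. By symbol, the members held 4 of 161 low genes of solute carriers, 1 of 81 low ZNF genes and 0 of 75 low olfactory receptor genes, beside the 2.38% over all low genes with a symbol. No family was compared with other genes by a test.

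Markers of the labelled cell type were high in every group. Summed TPM of the 7 epithelial markers found was 5440 to 5596 in 6 h controls and lower in 6 h treated cells, at 4075 to 4285, while it overlapped at 24 h, with 5854 to 6094 in controls and 6012 to 6189 in treated cells. At 6 h the means of control and treated cells were 2166 and 1193 TPM for KRT8, 1693 and 816 TPM for KRT18 and 371 and 191 TPM for EPCAM. TJP1 and VIL1 were also lower in treated cells at 6 h, TJP1 at 126 and 80.0 TPM. The markers did not all move together, since CLDN4 was higher in treated cells, at 646 and 1302 TPM, and so was CDH1, at 528 and 581 TPM. The part of this lower sum in the members of 6 h was not tested. VIL1, the villin of the brush border, had means of only 0.483 to 3.06 TPM. Lists for T cells, B cells, myeloid cells, fibroblasts, endothelium, neurons, erythroid cells and muscle named 37 genes, of which 34 were found, 24 had a mean TPM under 1 and 0 were members. Only 6 of the 34 were at 0 in all controls and so could have met the rule. Of these, SNAP25 and ALAS2 were at 0 in all 12 libraries, and the others were CD8A, MS4A1, KDR and DES. The 5 neuronal markers summed to 10.9 to 13.0 TPM in 6 h controls and 60.3 to 68.8 TPM in 6 h treated cells, and to 7.22 to 8.57 and 45.8 to 63.7 TPM at 24 h, almost all of it TUBB3. The others did not follow it. SYT1 had means of 0.163 and 0.0667 TPM in control and treated cells at 6 h and of 0.447 and 0.187 TPM at 24 h. RBFOX3 was lower in treated cells at 6 h, at 0.463 and 0.18 TPM, and higher at 24 h, at 0.56 and 0.883 TPM. GAP43 overlapped at both times. The 5 myeloid markers summed to 44.6 to 51.5 TPM and 57.6 to 59.5 TPM at 6 h, with overlap at 24 h, most of it LYZ. Control and treated libraries overlapped at both times for LYZ, ITGAM and CSF1R of this list. ITGAM had means of 0.4 and 0.337 TPM in control and treated cells at 6 h and of 0.483 and 0.597 TPM at 24 h, and CSF1R was at or near 0. CD14 and CD68, markers of monocytes and macrophages, were above all controls in every treated library at both times. CD14 had means of 1.22 and 5.99 TPM in control and treated cells at 6 h and of 1.5 and 4.49 TPM at 24 h, and CD68 had 0.17 and 2.62 TPM at 6 h and 0.19 and 3.88 TPM at 24 h. The 4 endothelial markers summed to 10.8 to 15.6 TPM and 20.3 to 25.1 TPM at 6 h, mostly PECAM1, with overlap at 24 h. CDH5 was above all controls in every treated library at both times. It had means of 0.00667 and 0.307 TPM in control and treated cells at 6 h and of 0.00667 and 0.08 TPM at 24 h. TEK was above the 6 h controls in every 6 h treated library and overlapped at 24 h. KDR was above 0 in a single 24 h treated library. The 4 muscle markers overlapped at 6 h and summed to 2.36 to 3.07 TPM in controls and 3.94 to 4.85 TPM in treated cells at 24 h. Most of the 24 h sum was MYH11, with means of 2.60 and 4.26 TPM in control and treated cells. TNNT3 was lower in treated cells at 24 h, at 0.107 and 0.0433 TPM. ACTA1 overlapped there, and DES was at 0. Fibroblast markers summed lower in treated cells, to 5.87 to 6.87 TPM against 9.51 to 9.96 TPM at 6 h and to 3.28 to 3.94 TPM against 7.83 to 8.61 TPM at 24 h. Sums of the 4 T cell markers were at most 0.22 TPM in any library. Among 4 B cell and 2 erythroid markers found, CD79A and HBB had means of 275 and 2052 TPM in 6 h controls and were similarly high in every group. The part of other cells in the members was not tested.

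Places in the genome were looked up only as the order of genes in RefSeq assembly Sscrofa11.1, since no genome build is given in the sources used here. By symbol, 116 members could be placed. LMCD1 and SSUH2 were next neighbours, as were GP5 and LRRC15. In the latter pair GP5, a platelet glycoprotein gene, had 0.1, 0.14 and 0.24 TPM at 6 h, whereas LRRC15 qualified at 24 h only. A placed neighbour overlapped 14 of the 116 members. SDCBP, which overlaps CYP7A1 in this annotation, had means of 91.2 and 168 TPM in control and treated cells at 6 h and of 110 and 137 TPM at 24 h. DDX39B, which overlaps MCCD1, had 231 and 133 TPM at 6 h and 155 and 162 TPM at 24 h. The overlapping neighbours of IL24, TNFRSF11B, TG and RASL12, which are FCMR, COLEC10, SLA and SLC51B, had at most 0.18 TPM in any library. Overlap was judged by the start and end of each gene only, so whether exons are shared is not known. Whether the counting used strand is not given in the sources used here. Mixing of reads between overlapping genes was not tested.

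Of the genes directly beside placed members, 102 had a mean TPM of at least 1. Every treated library lay above every control for 49 of these at 6 h (48.0%) and for 45 at 24 h (44.1%). Over all 8984 placed genes of that abundance the shares were 30.8% at 6 h and 37.1% at 24 h. This is a description, and neighbours were not compared with other genes by a test.

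At the limits of the rule, a single control library above 0 kept 273 genes out, in 53 of which that value was 0.01 TPM. The mean over the treated libraries had a median of 0.0433 TPM in these 273 genes. A further 516 genes at 0 in all controls were above 0 in 2 of 3 treated libraries at a time. For these the same median was 0.02 TPM, and for all 233 members it was 0.05 TPM. The limit on mean TPM kept out 1 gene, with a mean of 1.04 TPM, and the highest member by that mean, GPR50, had 0.886 TPM.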

How the data were processed

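RNA sequencing libraries of IPEC-J2 cells were analysed, 12 in 4 groups of 3, grouped and numbered by their titles, with the dose stated in the series' design text. The authors made and deposited 1 table, of TPM with 2 decimals, in which every library has the same total within rounding. The submitters' processing notes name fastp, HISAT and RSEM without versions. The genome build and annotation release are not given in the sources used here. Symbols for 15029 of 32518 identifiers came from a table of Ensembl gene names. RefSeq assembly Sscrofa11.1 was used only for gene order.

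Members were selected by the zero pattern. The members and lists were chosen with earlier results of these data known. Named genes are the most abundant members with a symbol, 12 of both times, 8 of 6 h only and 8 of 24 h only. Genes named as relatives of members were chosen afterwards.

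Treated 24 h and 6 h libraries were compared with limma version 3.58.1 in R version 4.3.3 (log2(TPM + 0.1), eBayes with trend, Benjamini-Hochberg, threshold 0.05) over genes above 0 in at least 3 of the 6 treated libraries. Controls stayed out of the fit because the rule fixes them at 0 in the members. In a test on simulated data of this comparison, on the same 20022 genes, 57.0% of 200 genes changed by 1 log2 unit were recovered, with 5.79% false calls, and 82.5% of those changed by 2 units, with 7.30% false. The changed genes were drawn only from genes above about 0.1 TPM. The 44 members tested had a median mean of 0.0733 TPM, so recovery at the level of most of them is not known. Alternatives are described in the closing section.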

Additional observations from a re-analysis of the deposited data

Results flagged for a closer look

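The members' controls were at 0 by the rule, so the treatment effects themselves were not tested, and only treated libraries were compared. Between 6 h and 24 h of treatment (limma, adjusted p-value under 0.05) 7 members that met the rule at both times differed. GPR50 was higher at 24 h, by 2.40 on the log2(TPM + 0.1) scale, as were ENSSSCG00000041229 and ENSSSCG00000047093, 2 genes with identical values, by 1.89 each. Lower at 24 h were TAC1 (-1.43), ENSSSCG00000041738 (-1.93), ENSSSCG00000025485 (-1.30) and ENSSSCG00000045883 (-0.58).

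Among the 610 assembled loci outside the Ensembl identifiers, which the rule did not use, 1 showed the zero pattern of the members, and 1 showed its mirror image, with the sides exchanged.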

How the results depend on the processing

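The number of members depended most on the limits of detection. It was 566 in place of 233 with control values of up to 0.02 TPM allowed and 112 with every qualifying value at 0.05 TPM or more. Leaving out each library in turn gave 265 to 359 members, the highest without replicate 3 of the 24 h treated group, as the rule then asks for fewer libraries. Without a limit on mean TPM the number was 234. With the limit applied after median-of-ratios rescaling it was 233. Rescaling leaves every value of 0 at 0, so it could have moved the number only through the limit on the mean.

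For treated 24 h against 6 h, all fits called within 1.5 times the 9604 genes reported, 8465 to 9144 when a library was left out. With all 4 groups in one fit, the 3 members called higher became 6, the 4 called lower became 6, and 10213 genes were called in all. That fit includes the controls, where the rule fixes the members at 0, so the control groups have no spread in the members. The higher counts of members in that fit are therefore no independent check, and their cause was not tested. With a library left out, 3 to 4 members were called higher and 3 to 4 lower. When the replicate block was added to the fit, 8953 genes were called, with 3 members higher and 4 lower. Treated libraries with the same number showed correlations of 0.00197 to 0.0265 between their deviations from the group means. The labels do not say whether libraries of the same number share a culture or batch, and these correlations cannot settle it.

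Of 176 refits of the 12 named genes of both times (a mean TPM of at least 0.1 left 4 of them out of that fit), 151 kept direction and side of the threshold, 7 lost the call, all for TAC1, 6 gained one and 12 changed sign. IL24, reported at 0.014, became -0.041 at a pseudocount of 1, -0.092 after median-of-ratios rescaling and -0.31 after quantile normalization. With a library left out, IL24 ranged from -0.33 to 0.67, CPXM1 from -0.23 to 0.14, ELAVL3 from -0.37 to 0.025, GARIN5B from -0.45 to 0.13 and SLC26A5 from -0.34 to 0.050. None of these 5 genes was called. The cause was not tested. Depth is unknown, which limits every statement about values near 0.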
